A study of Sus scrofa with 6 samples.

Results

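The genes described here are chemokine ligands of blood leukocytes, the secreted or shed proteins that direct white blood cells along a gradient. They were chosen from a list of 9 symbols and 1 Ensembl identifier, and a row of the deposited table was taken when its symbol or identifier equalled an entry. This gave 8 of the 11564 genes in the table, namely CCL4, CCL3L1, CCL5, CXCL2, CXCL8, CXCL10, CXCL16 and ENSSSCG00000008954, the last of which carries no symbol. That gene is counted as a ligand here only because the list names it, and the deposited table does not say what it encodes. CCL2 was not analysed here, and IL8 is an older symbol of CXCL8. The list was drawn up with the contrast between the sample labels in view, so the differences between labels given for these 8 genes are descriptions and no test of them is offered.

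RNA had been sequenced from peripheral blood mononuclear cells (PBMCs, the lymphocytes and monocytes separated from blood) of 6 Yorkshire pigs at 6 months of age. Of these, 3 are labelled WT and 3 are labelled leptin-overexpressing, with 1 animal behind each library. They are called WT-labelled and leptin-labelled here. The transgenic pigs were cloned by nuclear transfer from fetal fibroblasts selected after transfection with a pig leptin open reading frame, which the study's text places with a leptin promoter, while the controls are described only as nontransgenic. Expression is given as FPKM, fragments scaled by transcript length and by the library total, and the depth of each library is unknown.

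Chemokines are small proteins that bind G protein-coupled receptors on leukocytes, and they fall into families by the spacing of conserved cysteines. The CC ligands CCL3, CCL4 and CCL5 attract monocytes and T cells, CCL3 and CCL5 in part through CCR1. The CXC ligands CXCL8 and CXCL2 attract neutrophils through CXCR1 and CXCR2, whereas CXCL10 is induced by interferon and attracts activated T cells and NK cells through CXCR3. In blood, monocytes release CXCL8, CXCL2, CCL3 and CCL4 on activation, cytotoxic lymphocytes and memory T cells store or secrete CCL5, and platelets carry the chemokines PF4 and PPBP.

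The libraries were first checked against their labels and their cell type. LEP, the leptin gene, was at 50.0 FPKM in WT-labelled replicate 1, listed at 0 in WT-labelled replicate 2 and at 0.118 FPKM in WT-labelled replicate 3. In the leptin-labelled libraries it was listed at 0 in replicate 1, and stood at 18.3 FPKM in replicate 2 and 39.3 FPKM in replicate 3. LEP thus contradicts the label of each replicate 1 library, so differences follow the labels, and the log2 fold change of each ligand is also given with these 2 libraries left out. All 7 T cell markers were measured, with CD3E between 213.0 and 372.2 FPKM, and the monocyte marker CD14 ranged from 99.9 to 291.4 FPKM. The 7 of 10 neutrophil genes in the table summed to 3478 FPKM in WT-labelled replicate 1 and to between 362.5 and 1048 FPKM elsewhere. S100A12, S100A9 and S100A8 made up most of that sum, at 1702, 1031 and 698.9 FPKM in WT-labelled replicate 1. Of the other neutrophil genes, LTF, LCN2 and MMP8 also peaked in WT-labelled replicate 1, at 25.6, 9.68 and 9.74 FPKM. In the other libraries they did not exceed 9.92, 5.64 and 1.20 FPKM. The granule gene ELANE was at 0.651 FPKM in WT-labelled replicate 1 and did not exceed 1.05 FPKM in any library. In bulk RNA, fewer cells of a type and less RNA per cell cannot be told apart.

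CCL4 (MIP-1 beta, chromosome 12 from 41048661 to 41049981 in the table's coordinates, for which no genome build is named) parted the labels without overlap. It was at 16.4, 18.1 and 9.34 FPKM in the WT-labelled libraries and at 53.7, 132.6 and 65.7 FPKM in the leptin-labelled ones. The lowest of the second group was above the highest of the first, and replicate 2 of the leptin-overexpressing label was the highest library of all. The ratio of the group means was 5.74, and the log2 fold change on the log2(FPKM + 1) scale was 2.38 (standard error 0.36, n = 3 per label). This difference was 2.75 with both replicate 1 libraries left out and stayed between 1.9995 and 2.64 with any single library left out. Among the 11564 genes of a library, CCL4 ranked 5405 at its lowest and 570 at its highest.

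CCL3L1, a CC ligand of the MIP-1 alpha type, lies 11368 bp from CCL4 on chromosome 12 (41061350 to 41063253). Its levels were 6.53, 3.70 and 3.86 FPKM in the WT-labelled libraries and 4.92, 19.5 and 5.34 FPKM in the leptin-labelled ones. Leptin-labelled replicate 2 stood above all others, and the remaining 5 libraries lay between 3.70 and 6.53 FPKM with the labels overlapping. The log2 fold change of 0.72 (standard error 0.46) dropped to 0.14 without that library and was 1.25 without both replicate 1 libraries. The neighbours therefore did not keep one ratio. Within a library the FPKM of CCL4 divided by that of CCL3L1 was 2.52, 4.90 and 2.42 under the WT label and 10.9, 6.80 and 12.3 under the leptin-overexpressing label.

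CCL5 (RANTES, chromosome 12 from 41217456 to 41228604) was the most abundant of the 8 ligands in every library. It was at 519.8, 448.2 and 868.9 FPKM in the WT-labelled libraries and at 677.6, 330.5 and 563.9 FPKM in the leptin-labelled ones. The labels overlapped throughout, with the highest value under the WT label and the lowest under the other. The log2 fold change of -0.23 (standard error 0.33) was -0.53 without both replicate 1 libraries. It turned positive, to 0.056 without WT-labelled replicate 3 and to 0.074 without leptin-labelled replicate 2, so no direction is stated for it. CCL5 made up between 54.0% and 92.3% of the summed FPKM of the 8 ligands, the smallest share being in leptin-labelled replicate 2, where CCL4 and CCL3L1 were highest.

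**Figure D1:**
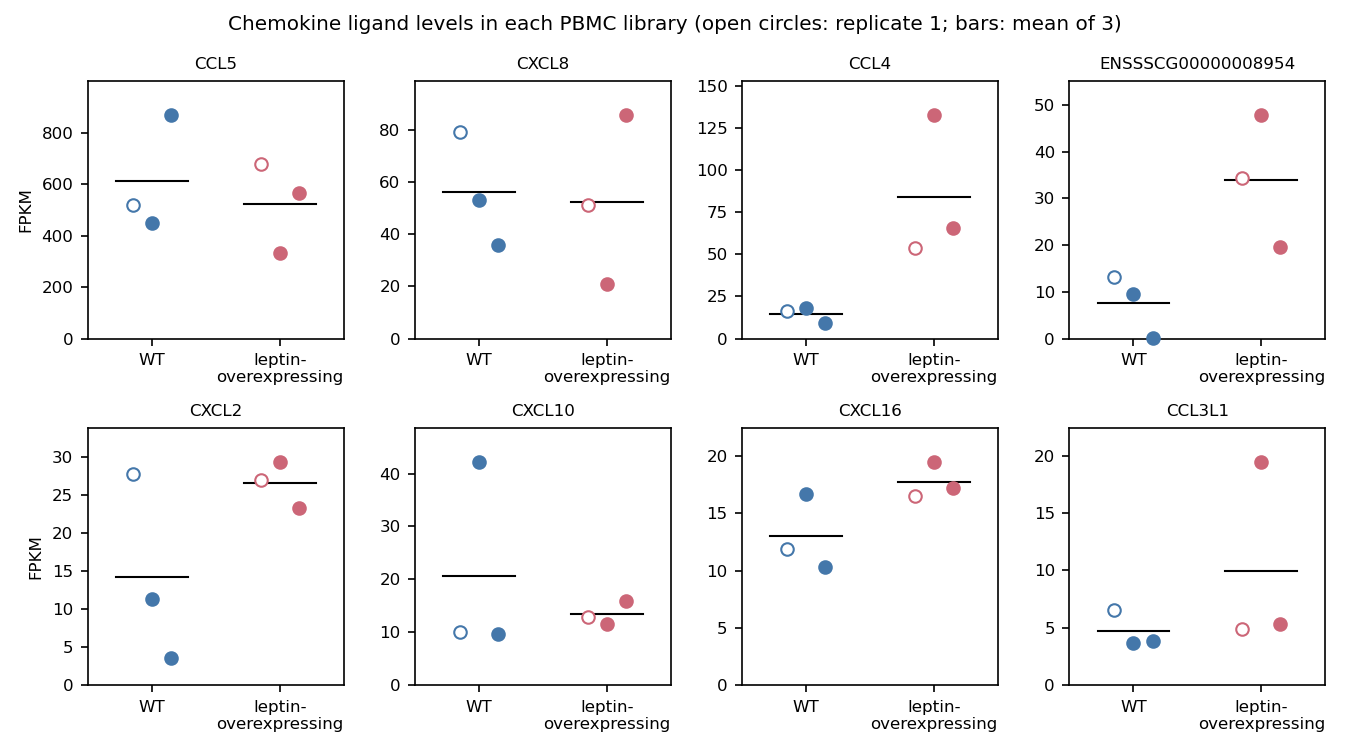
FPKM (vertical axis, linear from 0, a scale of its own in each panel) of the 8 chemokine ligands in the 3 libraries of each label, with open circles for replicate 1, filled circles for replicates 2 and 3, and bars for the mean of 3. CCL4 lies between 9.34 and 18.1 FPKM under the WT label and between 53.7 and 132.6 FPKM under the other, while CCL5 and CXCL8 overlap.

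Among the neutrophil-attracting CXC ligands, CXCL8 (interleukin 8, chromosome 8 from 74083529 to 74086750) was at 79.2, 53.1 and 35.8 FPKM in the WT-labelled libraries. It was at 51.1, 20.7 and 85.8 FPKM in the leptin-labelled ones, so both the highest and the lowest library carried that label. Its log2 fold change was -0.23 (standard error 0.49) and -0.039 without both replicate 1 libraries. It was 0.049 without WT-labelled replicate 1 and 0.31 without leptin-labelled replicate 2, and its sign therefore rested on single libraries. CXCL8 was lowest in the one library where CCL4 and CCL3L1 were highest.

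CXCL2 (MIP-2 alpha, a ligand of CXCR2, chromosome 8 from 74206842 to 74311988) was at 27.7, 11.3 and 3.56 FPKM in the WT-labelled libraries. It was at 27.0, 29.4 and 23.3 FPKM in the leptin-labelled ones, which thus lay close together. The overlap came from WT-labelled replicate 1 alone, since the other libraries of that label were below every library of the other. Between the labels the log2 fold change was 1.23 (standard error 0.56). It was 1.86 without both replicate 1 libraries, 1.88 without WT-labelled replicate 1 and 0.55 without WT-labelled replicate 3.

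ENSSSCG00000008954, for which the table gives no symbol, biotype or annotation term, lies on chromosome 8 from 74299023 to 74300021, inside the 105147 bp listed as the CXCL2 locus. It was at 13.2, 9.63 and 0.0753 FPKM in the WT-labelled libraries and at 34.4, 47.8 and 19.6 FPKM in the leptin-labelled ones. Every library of the second label was above every library of the first, and WT-labelled replicate 3 stood far below the rest. The log2 fold change was 2.59 (standard error 0.88) and 3.23 without both replicate 1 libraries. Without WT-labelled replicate 3 it was 1.42, and with a pseudocount of 0.1 in place of 1 it was 3.50. Because the loci overlap, reads of one gene can be counted in the other, and how they were divided was not tested. With the FPKM of CXCL2 and ENSSSCG00000008954 summed, an alternative chosen after seeing the data, the log2 fold change of the sum was 1.88, and it was 2.54 without both replicate 1 libraries.

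CXCL10 (IP-10, chromosome 8 from 75829903 to 75882217) was high in a single library. It was at 10.1, 42.3 and 9.65 FPKM in the WT-labelled libraries and at 12.9, 11.5 and 15.9 FPKM in the leptin-labelled ones. WT-labelled replicate 2 stood above the others, and the remaining 5 libraries lay between 9.65 and 15.9 FPKM. The log2 fold change was -0.27 (standard error 0.49), -0.56 without both replicate 1 libraries, and 0.40 without WT-labelled replicate 2, so its sign rested on that library.

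CXCL16 (chromosome 12 from 54264905 to 54269592) differs from the others in its protein, which is made as a membrane-bound ligand of CXCR6 that also takes up oxidised lipoprotein and is shed by ADAM10. It was at 11.9, 16.7 and 10.3 FPKM in the WT-labelled libraries and at 16.5, 19.5 and 17.2 FPKM in the leptin-labelled ones. The labels overlapped only in that WT-labelled replicate 2 was just above leptin-labelled replicate 1. The log2 fold change was 0.45 (standard error 0.19), as it was without both replicate 1 libraries, and it lay between 0.31 and 0.63 with any single library left out. CXCL16 varied least of the 8 ligands, its highest library being 1.89 times its lowest, against 14.2 times for CCL4.

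**Figure D2:**
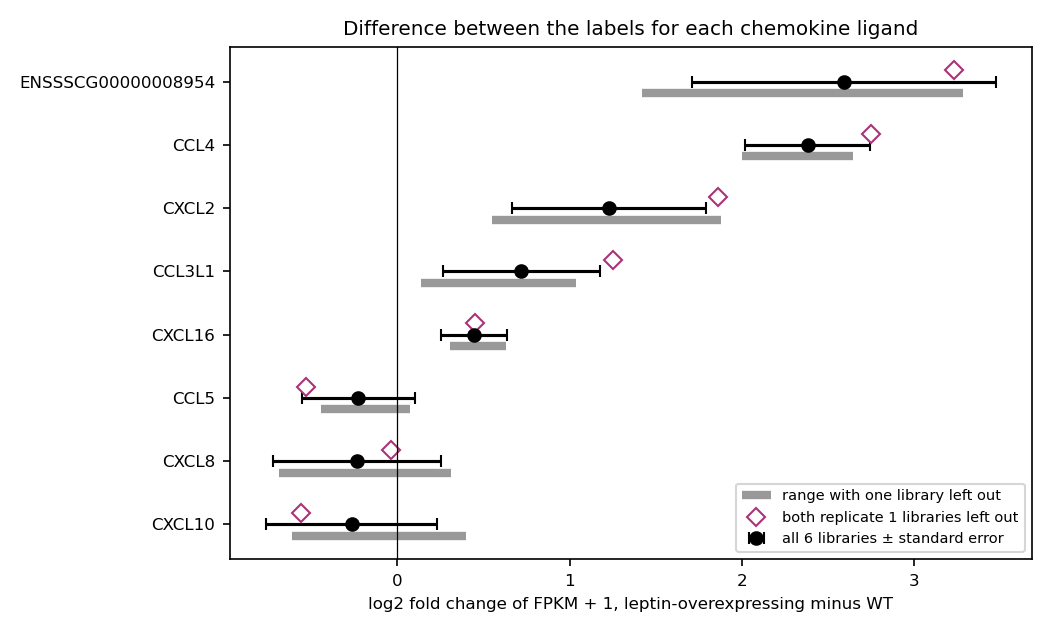
Log2 fold change on the log2(FPKM + 1) scale (horizontal axis, leptin-overexpressing minus WT) of each chemokine ligand, with black points and bars for all 6 libraries and the standard error, grey bars for the range with one library left out, and diamonds for both replicate 1 libraries left out. CCL4 stays between 1.9995 and 2.75, while CCL5, CXCL8 and CXCL10 reach both sides of 0.

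By mean level over the 6 libraries, the order was CCL5, CXCL8, CCL4, ENSSSCG00000008954, CXCL2, CXCL10, CXCL16 and CCL3L1. CCL5, with a mean of 568.2 FPKM, was above CXCL8, with 54.3 FPKM, in 6 of 6 libraries and without overlap of their ranges. CXCL8 was above CCL4 in 4 of 6 libraries, the exceptions carrying the leptin-overexpressing label, and the ranges overlapped. CCL4 was above ENSSSCG00000008954, and CXCL16 above CCL3L1, in 6 of 6 libraries, although their ranges over libraries overlapped. The genes in the middle of the order did not separate. ENSSSCG00000008954 was above CXCL2 in 2 of 6 libraries, CXCL2 above CXCL10 in 4 of 6 and CXCL10 above CXCL16 in 1 of 6, so the last pair is ordered by the high CXCL10 value of WT-labelled replicate 2 alone.

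**Figure D3:**
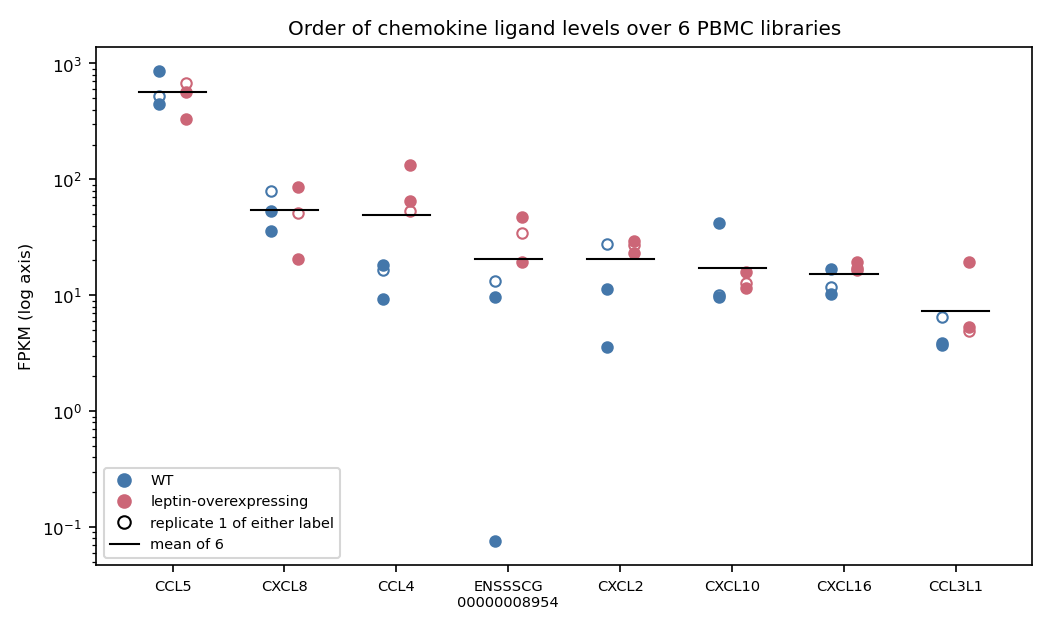
FPKM (vertical log axis) of the 8 chemokine ligands in order of their mean over 6 libraries (black bars), with blue points for the WT label, red points for the leptin-overexpressing label and open points for replicate 1. CCL5 lies between 330.5 and 868.9 FPKM and shares its range with none of the other 7, and the point of ENSSSCG00000008954 at 0.0753 FPKM is WT-labelled replicate 3.

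These ligands varied between libraries of one label more than most genes. The standard deviation within labels on the log2(FPKM + 1) scale was 0.25 for CXCL16 and from 0.52 to 1.51 for the other 7 ligands, against a median of 0.22 over the 10735 genes tested. It was larger than that of 60.8% of those genes for CXCL16, of 95.4% for CCL4 and of 98.0% for CXCL8.

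A model across all genes was fitted to ask which genes differ between the labels (limma on log2(FPKM + 1), two-sided, Benjamini-Hochberg adjustment). All 8 ligands were among the 10735 genes that reached 1 FPKM in 3 or more libraries. Of the 8, 5 had a positive log2 fold change and 3 a negative one, with a median of 0.58, beside 63.1% positive and a median of 0.059 over all genes tested. Total FPKM per library ran from 444888 to 449653 under the WT label and from 467276 to 503140 under the leptin label. With median-of-ratios scaling between libraries the medians were 0.52 for the ligands and 0.0022 for all genes. CCL4 and ENSSSCG00000008954, the latter counted by identifier only, were the 2 of the 8 whose libraries did not overlap between the labels. Both had the leptin-labelled libraries above. Over all genes this held for 7.63%, with the leptin-labelled libraries above for 5.0% and below for 2.63%. In limma, 3.18% of all genes had an unadjusted p under 0.05, 1.98% positive and 1.19% negative, and 0.00932% had an adjusted p under 0.05. With a 2-fold change also asked for, 0.196% of all genes were higher and 0.121% lower by unadjusted p. Since this contrast was in view when the 8 ligands were chosen, no p is given for them and nothing is read from their counts.

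**Figure D4:**
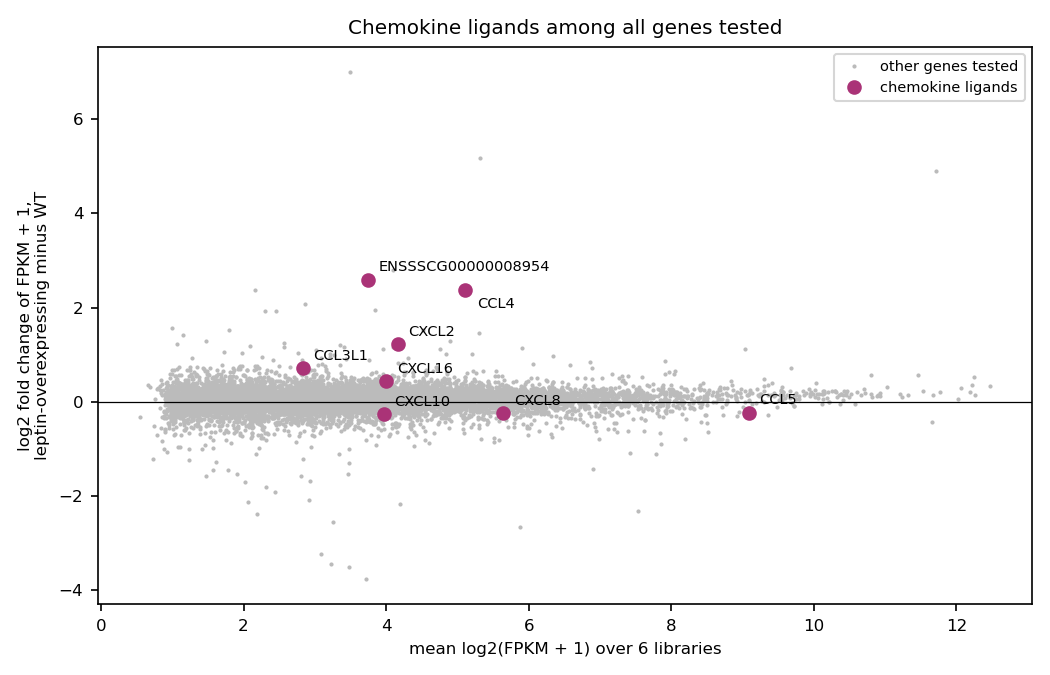
Log2 fold change (vertical axis, leptin-overexpressing minus WT, on the log2(FPKM + 1) scale) against the mean log2(FPKM + 1) over 6 libraries (horizontal axis) for 10735 genes, with the 8 chemokine ligands named. CCL4, at 2.38, and ENSSSCG00000008954, at 2.59, lie away from the bulk of genes of like level, whereas CCL5, CXCL8 and CXCL10 lie just under 0.

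The genes whose profile over the 6 libraries was most like each ligand were sought among 4985 other genes with a symbol and a mean of at least 5 FPKM, by Pearson's r on log2(FPKM + 1). With 6 libraries and 4985 candidates per ligand, the values are given as a description. For CCL5, 155 genes had an r over 0.9, and the leading ones were CREBZF (0.99) and NKG7 (0.98), the latter a protein of cytotoxic granules. NKG7 was at 92.3, 83.3 and 123.3 FPKM in the WT-labelled libraries and at 113.5, 66.9 and 105.4 FPKM in the leptin-labelled ones, the same rank order as CCL5. For CXCL8 they were HNRNPA2B1 (0.98) and SLAIN2 (0.97), and for CXCL10 they were RHOH (0.97) and CDHR4 (0.96), both of which were highest in WT-labelled replicate 2.

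For CCL4 the leading genes were SDHAF2, an assembly factor of succinate dehydrogenase, with an r of 0.94, and FAM63A with 0.93, and 9 genes were over 0.9. For CCL3L1 they were PLOD1, a collagen lysyl hydroxylase, and TIMP2, an inhibitor of metalloproteinases, with an r of 0.997 and 0.991. Both peaked in leptin-labelled replicate 2, where TIMP2 was at 355.9 FPKM against 221.7 to 254.2 FPKM elsewhere. For CXCL16 they were TMEM167A and LIPE, with an r of 0.99 and 0.98. For CXCL2 they were KLC4 and NFE2L2, the regulator of the antioxidant response, with an r of 0.94 for each. For ENSSSCG00000008954 they were CCL8 and CH242-185F9.2, each with an r of 0.97. Between the ligands themselves, ENSSSCG00000008954 and CXCL2, which share a locus, had the highest r, at 0.95.

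**Figure D5:**
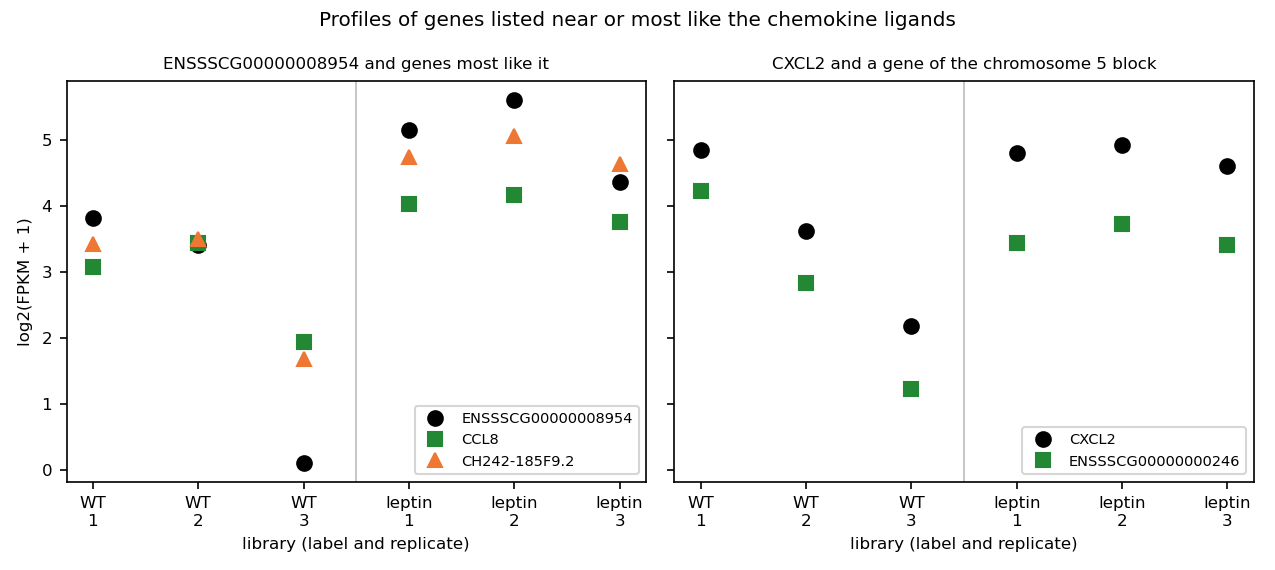
Log2(FPKM + 1) (vertical axis) in each library (horizontal axis, by label and replicate) of ENSSSCG00000008954 with CCL8 and CH242-185F9.2 (left) and of CXCL2 with ENSSSCG00000000246 (right). In both panels the lowest point of each gene is WT-labelled replicate 3, and in the left panel all 3 genes are higher in every library labelled leptin-overexpressing than in any labelled WT.

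Further chemokine ligands came from a list of 39 symbols, of which 7 genes were in the table and were tested, PPBP being listed at 2 loci. This list and those that follow were also drawn up with earlier results of these data known, so their counts and p-values are not independent evidence. Of these 7, 2 had a positive difference with an unadjusted p under 0.05 and 0 a negative one, where 1.98% and 1.19% of all genes did. None of the 7 had an adjusted p under 0.05, and their median log2 fold change was 0.092, beside 0.059 over all genes. CCL8 (MCP-2, a monocyte-attracting CC ligand, chromosome 12 from 42456841 to 42458852) was at 7.44, 9.85 and 2.85 FPKM in the WT-labelled libraries and at 15.3, 17.1 and 12.5 FPKM in the leptin-labelled ones, without overlap. Its log2 fold change was 1.16 (standard error 0.35, unadjusted p = 0.0110, adjusted p = 0.993, limma). XCL1 (lymphotactin, secreted by cytotoxic lymphocytes) was at 5.17, 6.61 and 6.42 FPKM and at 7.51, 14.04 and 7.66 FPKM in the same order. XCL1 also did not overlap, and its difference was 0.56 on the log2 scale (standard error 0.24, unadjusted p = 0.0484, adjusted p = 0.993, limma). With both replicate 1 libraries left out the difference was 1.27 for CCL8 (unadjusted p = 0.0494, limma) and 0.60 for XCL1 (unadjusted p = 0.0937, limma). CCL8 was at 0.73 without WT-labelled replicate 3, its lowest library. XCL1 was at 0.29 without leptin-labelled replicate 2, its highest library (unadjusted p = 0.123, limma), and its unadjusted p was also above 0.05 without any one of the WT-labelled libraries. XCL1 kept an unadjusted p under 0.05 in 4 of 14 alternatives and CCL8 in 13. The most abundant chemokine ligand among those listed was CCL23, a CCR1 ligand that lies between CCL3L1 and CCL5 on chromosome 12, at 1010 to 1272 FPKM over the 6 libraries and above CCL5 in each. The platelet ligand PF4 ranged from 95.3 to 358.1 FPKM with the labels overlapping.

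Among receptors of chemokines, CCR1, CCR2 and CXCR3 were in the table, and CXCR1, CXCR2 and CXCR6 were not analysed here. CCR1, which binds CCL5 and CCL23, was at 374.4, 261.7 and 185.8 FPKM in the WT-labelled libraries and at 169.8, 305.5 and 211.5 FPKM in the leptin-labelled ones. CXCR3, the CXCL10 receptor, ranged from 6.59 to 18.5 FPKM and CCR2 from 16.1 to 39.4 FPKM, with overlap between the labels. Over the receptor list, 14 genes were tested and 0 had an unadjusted or adjusted p under 0.05 in limma, with log2 fold changes positive for 8 and negative for 6, beside 3.18% with an unadjusted p under 0.05 and 63.1% positive over all genes.

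Downstream of the receptors, 13 genes of G protein, arrestin and PI3K signalling were tested, among them GNAI2 at 706.8 to 967.2 FPKM and ARRB2 at 346.7 to 475.7 FPKM. Of the 13, 0 had an unadjusted or adjusted p under 0.05 in limma, and their median log2 fold change was 0.076, beside 3.18% with an unadjusted p under 0.05 and a median of 0.059 over all genes. Of 6 tested genes of proteases that cleave or shed chemokines, 0 passed either threshold in limma, beside the same 3.18%, and ADAM10, which sheds CXCL16, was at 18.8 to 22.8 FPKM. MMP9 was at 225.3 FPKM in leptin-labelled replicate 2, the library with the highest CCL4 and CCL3L1, and between 38.5 and 59.7 FPKM in the others.

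Inflammatory inducers of chemokine transcription and their feedback genes gave 17 tested genes, of which 3 had a positive difference with an unadjusted p under 0.05, 0 a negative one and 0 an adjusted p under 0.05 in limma, beside 1.98% positive and 1.19% negative by unadjusted p over all genes. The 3 became 1 under median-of-ratios scaling and 1 without moderation of the variance. TNF, a cytokine that induces chemokine genes, was at 18.4, 8.76 and 35.9 FPKM in the WT-labelled libraries and at 43.3, 47.5 and 46.6 FPKM in the leptin-labelled ones, without overlap (log2 fold change 1.29, standard error 0.41, unadjusted p = 0.0140, adjusted p = 0.993, limma). NFKBIA, the inhibitor of NF-kB, was at 114.2, 72.1 and 93.4 FPKM and at 144.7, 211.6 and 112.4 FPKM, with the lowest of the second set just under the highest of the first. Its log2 fold change was 0.72 (standard error 0.26, unadjusted p = 0.0262, adjusted p = 0.993, limma). ZFP36, which binds and destabilises cytokine mRNAs, was at 133.2, 165.4 and 118.3 FPKM and at 170.0, 205.4 and 231.7 FPKM without overlap, a log2 fold change of 0.54 (standard error 0.19, unadjusted p = 0.0197, adjusted p = 0.993, limma). With both replicate 1 libraries left out, the difference was 1.34 for TNF (unadjusted p = 0.0751, limma), 0.90 for NFKBIA (0.0433) and 0.64 for ZFP36 (0.0366). TNF was at 0.81 without WT-labelled replicate 2, its lowest library, and at 1.77 without WT-labelled replicate 3. NFKBIA was at 0.54 without WT-labelled replicate 2 (unadjusted p = 0.0869, limma) and at 0.47 without leptin-labelled replicate 2 (0.0840). ZFP36 was at 0.43 without WT-labelled replicate 3 (unadjusted p = 0.0647, limma) and at 0.44 without leptin-labelled replicate 3 (0.0788). NFKB1, RELA and REL did not pass either threshold.

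Marker levels of the cells that make these ligands were set beside them. Summed over 7 monocyte genes, the level was 868.0, 450.3 and 377.6 FPKM in the WT-labelled libraries and 528.6, 892.8 and 624.2 FPKM in the leptin-labelled ones. The labels overlapped, and the ratio of the group means was 1.21. With both replicate 1 libraries left out, a comparison chosen after seeing the data, the ratio of the monocyte sums was 1.83 and the labels did not overlap. LYZ and CD14 made up most of the sum, with LYZ at 129.1 and 174.7 FPKM in the remaining WT-labelled libraries and at 441.6 and 325.2 FPKM in the remaining leptin-labelled ones, while CSF1R was at 63.8 and 54.3 FPKM and at 71.5 and 50.8 FPKM. With all libraries, 4 of the 7 monocyte genes had a positive and 3 a negative log2 fold change, with a median of 0.065. The library with the highest monocyte sum was also the one with the most CCL4. WT-labelled replicate 1, whose label LEP contradicts, had nearly as high a sum and 16.4 FPKM of CCL4. The 8 cytotoxic lymphocyte genes summed to between 274.8 and 663.2 FPKM under the WT label and to between 405.9 and 627.0 FPKM under the other, a ratio of 0.948 that was 1.10 without both replicate 1 libraries. For the neutrophil genes, a sum made up mostly of S100A8, S100A9 and S100A12, the ratio was 0.444 with all libraries and 1.60 without those 2. In each of the 7 marker lists, with 2 to 8 tested genes, 0 had an unadjusted or adjusted p under 0.05 between the labels in limma. Over all genes 3.18% and 0.00932% did, so nothing is read from counts in lists this short. The part of cell composition in the differences was not tested.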

How the data were processed

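The authors deposited FPKM values, 1 per gene and library, for 6 libraries. Per the paper's methods, paired-end reads were aligned with Bowtie to an Ensembl transcriptome and quantified with RSEM, whereas the submitters' processing notes name FastQC, STAR 2.5, Cuffnorm and DESeq 1.22.1. The table does not say which made the values, and names no genome build. No counts are given, so depth is unknown and precision rests on 3 libraries per label. Each column name holds the code in 1 sample's description, and 0 columns were left over. Columns of the authors' own fold change, p-value, FDR and mark were not used.

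The 10735 of 11564 genes that reached 1 FPKM in 3 or more libraries were compared in R 4.3.3 with limma 3.58.1 (functions lmFit and eBayes without trend or robust options) on log2(FPKM + 1), label only, two-sided, with Benjamini-Hochberg adjustment over all genes tested. That scale understates the fold change of low genes. The p-values set the label difference against the spread between 3 animals per label. The variance of each gene in that test is moderated toward that of all genes.

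The members and lists were chosen with earlier results of these data known. Genes named are the 8 members, LEP, genes of the fixed lists with an unadjusted p under 0.05, receptors of the members, and for each member the 2 genes of highest r. Genes named for level, position or a library's value (such as CCL23, MMP9 and the chromosome 5 genes) were picked after their values were seen. The comparison of the labels was tested on simulated data of 10735 genes, 200 of them shifted by 2 on the log2 scale. It called 178 of these and 1 other gene by the 2-fold and adjusted p thresholds. In the deposited data the same thresholds gave 1 gene higher and 0 lower. The share of true differences found in the deposited data was not tested. Reads shared between overlapping loci or near copies could not be separated in FPKM. Of the 8 member identifiers, 4 were in the reference table of gene names. Alternatives tried were the pseudocount, the filter, median-of-ratios scaling, no moderation, the replicate block, libraries left out and, chosen after seeing the data, sums of overlapping or alike genes. Tools that need counts were not run. Not every gene of the named-gene rule is reported here. Figures were drawn in Python 3.11.15 with matplotlib 3.10.9.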

Additional observations from a re-analysis of the deposited data

How the results depend on the processing

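The median log2 fold change of the 8 ligands was positive under all 14 alternatives (0.34 to 0.85), with 4 to 7 positive. CCL4, CXCL2, CXCL16 and CCL3L1 stayed positive in each, and so did ENSSSCG00000008954 except under the filter on all 6 libraries, which it did not pass. With one replicate left out, CCL5 ranged from -0.44 to 0.074, CXCL8 from -0.69 to 0.31 and CXCL10 from -0.61 to 0.40. The positive values were 0.056 and 0.074 for CCL5 without WT replicate 3 and leptin-overexpressing replicate 2, 0.049 and 0.31 for CXCL8 without WT replicate 1 and leptin-overexpressing replicate 2, and 0.40 for CXCL10 without WT replicate 2. Depth is unknown, so low values such as 0.0753 FPKM carry no counting interval. Where a count moved, the cause was not tested. Tests that need counts were not run.

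Over all genes, the 2-fold and adjusted p thresholds in limma gave 1 higher and 0 lower, and the unadjusted p gave 21 and 13. The first count was 0 with a pseudocount of 5, with an FPKM of at least 1 in all 6 libraries and without moderation, and 2 with the replicate block. At the unadjusted p the counts were 8 and 5 with a pseudocount of 5 and 9 and 3 without moderation, the lower count was 5 with the stricter filter and 31 with the replicate block, and without both replicate 1 libraries they were 37 and 25, with 1 lower at the adjusted p. With one replicate left out, higher and lower genes each numbered 0 to 2 by adjusted p, whereas by unadjusted p there were 16 to 36 higher and 14 to 50 lower. The largest counts, 36 and 50, came without WT replicate 3.

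Of the further chemokine ligands, 2 had an unadjusted p under 0.05. The count was 1 with a pseudocount of 0.1 or 5, without a filter, under median-of-ratios scaling and without both replicate 1 libraries, 0 without moderation, and 1 to 3 with one replicate left out. Inducer and feedback genes numbered 3, but 1 with median-of-ratios scaling and 1 without moderation, and 2 to 4 with one replicate left out. Of these genes, CCL8, XCL1, NFKBIA, TNF and ZFP36 kept a positive sign throughout, and under median-of-ratios scaling the unadjusted p was 0.102 for XCL1, 0.0729 for NFKBIA and 0.0598 for ZFP36. Receptor signalling genes numbered 0, but 1 with a pseudocount of 5 and 1 without moderation, and they, the receptors and the proteases gave 0 to 1 with one replicate left out. The replicate numbers belong to different animals. Libraries of one number had deviations that correlated at -0.284, 0.135 and -0.0073. For libraries of unlike number the correlations ran from -0.259 to 0.338. So few values cannot tell whether a number marks a shared batch, and the main comparison did not pair libraries. With the replicate block, 29 genes were higher by 2-fold change and unadjusted p.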

Other observations

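A block of 4 genes on chromosome 5, seen after the values were examined, ran beside the chromosome 8 ligands. It spans 101129 bp with 0 other listed genes inside, and holds ENSSSCG00000000243, a gene listed as PPBP (ENSSSCG00000000244), ENSSSCG00000000246 and CH242-185F9.2 (ENSSSCG00000000242). Its PPBP had an r of 0.98 over 6 libraries with the PPBP listed between CXCL8 and PF4 on chromosome 8. ENSSSCG00000000246 was most like CXCL2 among the chromosome 8 ligands (r = 0.96), at 17.8, 6.18 and 1.35 FPKM in the WT-labelled libraries and at 9.87, 12.2 and 9.62 FPKM in the leptin-labelled ones. CH242-185F9.2 was most like ENSSSCG00000008954 (r = 0.97), at 9.74, 10.3 and 2.21 FPKM and at 25.8, 32.4 and 24.0 FPKM, without overlap between the labels. ENSSSCG00000000243 had an r of 0.87 with PF4 and with PPBP of chromosome 8. The RefSeq table of assembly Sscrofa11.1 lists 1 gene named PPBP, and 0 of that name on chromosome 5, while the deposited table lists 2. Whether these are copies that share reads was not tested. With the FPKM of ENSSSCG00000008954 and CH242-185F9.2 summed, chosen after seeing the data, the log2 fold change was 2.36, against 2.59 for ENSSSCG00000008954 alone. Without both replicate 1 libraries these were 2.86 and 3.23.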
